A study of Arabidopsis thaliana with 8 samples.

Results

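A set of 10 genes for proteins that find and join the ends of introns was followed in inflorescences of Arabidopsis, with their identity given by locus number: U1-70K (AT3G50670), U1A (AT2G47580) and U1C (AT4G03120) of the U1 particle, U2AF35a (AT1G27650), U2AF35b (AT5G42820), U2AF65a (AT4G36690) and U2AF65b (AT1G60900) of the U2AF heterodimer, and PRP8 (AT1G80070), BRR2a (AT1G20960) and CLO (AT1G06220) of the U5 particle. They were taken by these locus numbers from the 28775 genes of the mRNA count tables, but the genes were chosen with earlier results of these data known. All 10 were present and all 10 passed the filter on low counts that left 22990 genes for testing. The 4 mRNA libraries came from untreated plants grown in long days, 2 from the wild-type accession Col-0 and 2 from janus-2, a hypomorphic CRISPR/Cas9 allele of JANUS, which encodes the Arabidopsis homologue of the U2 particle protein SF3B4. The janus-2 plants derived from 1 mutant line that was backcrossed to Col-0 and were sterile and small. The study describes the replicates as biological. The p-values refer to these libraries only, and with 2 per genotype the spread of each gene was estimated mainly across genes. The comparison asks whether other proteins of the early and of the catalytic spliceosome change in transcript level when JANUS is reduced.

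The spliceosome is assembled anew on each intron. The U1 particle pairs with the 5′ splice site, U2AF binds the pyrimidine tract and the AG at the other end of the intron, and U2AF then helps the U2 particle, with its SF3b proteins, to settle on the branch site. The U5 particle arrives later, joined to U4 and U6, and holds the exon ends while PRP8, BRR2 and the GTPase known in yeast as Snu114 control the change to the active form. In Arabidopsis several of these proteins are encoded by more than 1 gene, and loss of PRP8 is known to arrest embryos.

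The libraries held between 56360882 and 65578130 counts on genes, and the 10 genes took 81748 and 95904 of them in Col-0, against 108275 and 100924 in janus-2. A floor of 3 counts corresponded to 0.0455 to 0.053 CPM (counts scaled to a common library total, with the trimmed mean of M values, TMM, as factor), so that depth did not limit any of the 10 genes, whose lowest count was 1870. JANUS (AT2G18510) itself had 54.9 and 54.2 CPM in Col-0 against 18.3 and 19.4 CPM in janus-2, lower in the libraries labelled as the mutant. Replicates were close, with a common coefficient of variation of 2.26%, and differences far smaller than 1.5-fold therefore passed the test. In what follows "rose" and "fell" mean that the adjusted p did not exceed 0.05 (edgeR quasi-likelihood test, Benjamini-Hochberg over all 22990 genes), and "called" means the same p together with a fold change of at least 1.5. A plain fold is the ratio of mean CPM. A log2 fold change was fitted by edgeR, and its standard error (SE) is that of DESeq2.

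Of the 10 genes, 9 rose in janus-2, and U2AF65a alone among them fell slightly. Most of the rises were small. Their median log2 fold change was 0.28, against -0.02 over all tested genes and 0.15 over the 6763 tested genes with a mean CPM between the lowest and the highest of the 10 (38.1 and 450.6 CPM). Only U2AF65b and CLO were called higher, 2 of 10, beside a background of 18.5% of all tested genes called higher and 20.0% of those in the same CPM range, in which 11.7% were called lower. In either direction, 45.7% of all tested genes were called. Of the 10, 0 were called lower by edgeR and 0 by DESeq2, beside 27.2% of all tested genes. U2AF65a, the 1 that fell, passed the adjusted p but not the fold threshold. Without the fold threshold, 40.6% of all tested genes and 56.9% of those in the same range rose, and 42.5% and 32.8% fell, so that 83.1% of all tested genes passed in one direction or the other. Both janus-2 libraries lay above both Col-0 libraries in 9 of the 10 genes and below them in 1, beside 44.2% and 46.6% of all tested genes. The groups did not overlap in 90.8% of all tested genes, so that this separation is common in these data. The share of 2 in 10 genes called higher is close to the background. In size, the median absolute log2 fold change was 0.28 for the 10 genes and 0.53 over all tested genes. The latter include genes outside the CPM range of the 10, and this median was not computed within that range.

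**Figure D1:**
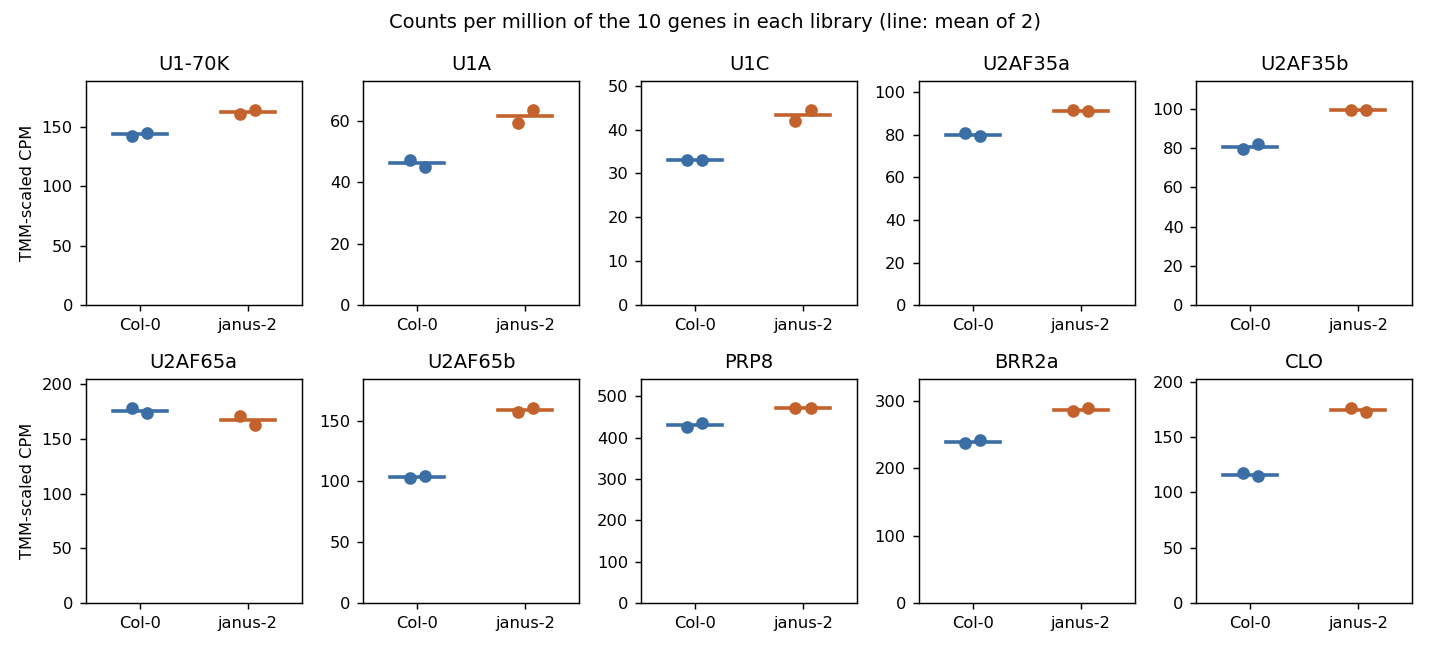
TMM-scaled CPM (y axis, from 0) of each of the 10 genes in the 2 Col-0 and the 2 janus-2 libraries, with points for libraries and lines for the mean of 2. In every panel except that of U2AF65a both janus-2 points lie above both Col-0 points, and the widest steps are those of U2AF65b (103.9 to 158.9 CPM) and CLO (116.1 to 174.6 CPM).

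The 3 U1 genes rose to different extents. U1-70K, which binds the first stem-loop of U1 RNA and carries the domain that contacts SR proteins, had 142 and 145 CPM in Col-0, against 161 and 164 CPM in janus-2. The groups did not overlap, and the fold was 1.13 (log2 fold change 0.17, SE 0.03, adjusted p = 4.92e-11 from edgeR). U1A, which binds a further stem-loop of U1 RNA, had 47.3 and 44.9 CPM in Col-0, against 59.4 and 63.4 CPM in janus-2. Its fold of 1.33 was the largest among the U1 genes (log2 fold change 0.41, SE 0.06, adjusted p = 1.99e-26 from edgeR). U1C, a zinc finger protein that in yeast and human steadies the pairing of U1 RNA with the 5′ splice site, had 33.0 and 33.0 CPM in Col-0, against 42.1 and 44.4 CPM in janus-2, and its fold was 1.31 (log2 fold change 0.39, SE 0.06, adjusted p = 2.48e-17 from edgeR). U1A and U1C thus moved by nearly the same amount. The ratio of U1C to U1A in CPM was 0.70 and 0.74 in Col-0, against 0.71 and 0.70 in janus-2, and these overlap. The ratio of U1A to U1-70K was 0.33 and 0.31 in Col-0, against 0.37 and 0.39 in janus-2, a change of 1.18-fold, and that of U1C to U1-70K changed by 1.16-fold. Neither of the latter ratios overlapped between the genotypes. With 2 libraries against 2, an exact permutation test of a ratio cannot go below p = 0.333 (two-sided), and ratios and shares are therefore given as values.

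U2AF is a dimer of a small subunit, which reads the AG at the end of the intron, and a large subunit, which binds the pyrimidine tract before it. Both small-subunit genes rose. U2AF35a had 81 and 79.3 CPM in Col-0, against 91.5 and 91.1 CPM in janus-2, a fold of 1.14 (log2 fold change 0.19, SE 0.04, adjusted p = 4.77e-09 from edgeR). U2AF35b had 79.4 and 81.8 CPM in Col-0, against 99.1 and 99.1 CPM in janus-2, a fold of 1.23 (log2 fold change 0.30, SE 0.04, adjusted p = 4.95e-21 from edgeR). The janus-2 libraries were nearly equal to each other in both genes and stood above both Col-0 libraries.

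The large-subunit genes moved in opposite directions. U2AF65b had 103.1 and 104.6 CPM in Col-0, against 157.3 and 160.5 CPM in janus-2, the largest fold among the 10 genes. Its fold was 1.53 (log2 fold change 0.61, SE 0.04, adjusted p = 1.98e-106 from edgeR), with a 95% interval of the fold from 1.45 to 1.60 (DESeq2). U2AF65a had 178 and 174 CPM in Col-0, against 171 and 163 CPM in janus-2. Here the groups were separated only by the step from 174 to 171 CPM, which is smaller than the distance between the 2 janus-2 libraries. The fold was 0.949 (log2 fold change -0.07, SE 0.03, adjusted p = 0.0044 from edgeR and 0.0275 from DESeq2), with a 95% interval from 0.904 to 0.992 (DESeq2). This fall was lost when single libraries were left out. The adjusted p was 0.104 without Col-0 replicate 1, at a log2 fold change of -0.054, and 0.277 without janus-2 replicate 2, at -0.035.

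Within each U2AF pair the counts of both genes can be set against each other in the same library, which does not depend on how libraries are scaled. U2AF65a held 63.4% of the U2AF65 counts of Col-0 replicate 1 (62.6% to 64.1%, exact binomial interval at 95%) and 62.4% of those of replicate 2 (61.7% to 63.1%), against 52.1% (51.4% to 52.8%) and 50.4% (49.7% to 51.1%) in janus-2. The mean share was 62.9% ± 0.693 (SD, n = 2) in Col-0 and 51.2% ± 1.23 (SD, n = 2) in janus-2, a fall by 11.6 percentage points. In Col-0 the U2AF65a counts were 1.73 and 1.66 times those of U2AF65b, and in janus-2 they were 1.09 and 1.02 times as many. The intervals cover counting error only, and the shares compare counts, not molecules, because gene length was not corrected. U2AF35a held 50.5% and 49.2% of the U2AF35 counts in Col-0, against 48.0% and 47.9% in janus-2, a fall by 1.9 percentage points. That step was small, and the interval of Col-0 replicate 2 (48.3% to 50.2%) overlapped those of both janus-2 libraries (47.1% to 48.9% and 47.0% to 48.8%). The sum of the U2AF65 genes went from 279.9 to 326.0 CPM and the sum of the U2AF35 genes from 160.7 to 190.4 CPM, by 1.16-fold and 1.18-fold as values without a test, and the ratio of the sums was 0.57 and 0.58 in Col-0, against 0.58 and 0.59 in janus-2.

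**Figure D2:**
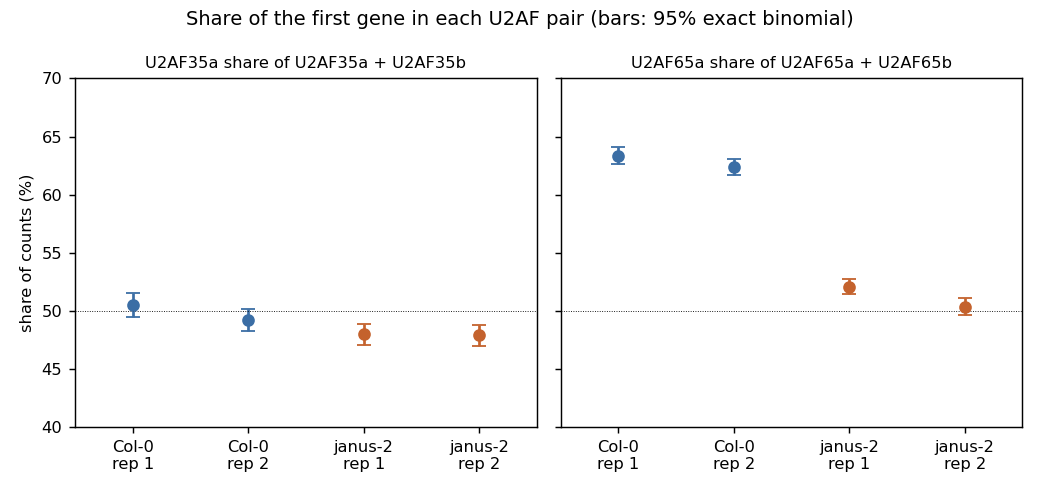
Share of the counts of each U2AF pair (y axis, in percent, not starting at 0) that fell on U2AF35a (left) and on U2AF65a (right) in each of the 4 libraries, with 95% exact binomial intervals as bars and equal shares as a dotted line. The U2AF65a share stood at 63.4% and 62.4% in Col-0 and at 52.1% and 50.4% in janus-2, whereas the U2AF35a share stayed between 47.9% and 50.5%.

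All 3 U5 genes rose, in the order PRP8, BRR2a and CLO. PRP8, the large scaffold at the catalytic centre, had 425 and 435 CPM in Col-0, against 471 and 472 CPM in janus-2. Its fold of 1.10 (log2 fold change 0.13, SE 0.02, adjusted p = 3.86e-10 from edgeR) was the smallest of the rises among the 10 genes. BRR2a, the helicase that in yeast and human parts U4 from U6, had 237 and 242 CPM in Col-0, against 285 and 290 CPM in janus-2, a fold of 1.20 (log2 fold change 0.26, SE 0.03, adjusted p = 1.08e-29 from edgeR). CLO, the homologue of the yeast GTPase Snu114, had 117.7 and 114.5 CPM in Col-0, against 176.3 and 172.9 CPM in janus-2. Its fold of 1.504 (log2 fold change 0.59, SE 0.03, adjusted p = 5.28e-105 from edgeR) lay just past the threshold, with a 95% interval from 1.43 to 1.57 (DESeq2). The U5 genes therefore changed relative to each other. The ratio of CLO to PRP8 in CPM was 0.28 and 0.26 in Col-0, against 0.37 and 0.37 in janus-2, a change of 1.37-fold, and that of BRR2a to PRP8 was 0.56 and 0.56 in Col-0, against 0.60 and 0.61 in janus-2, a change of 1.09-fold.

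The call of CLO, and with upper-quartile scaling that of U2AF65b too, depended on where the 1.5-fold threshold fell. With upper-quartile scaling, in which the median of all tested genes was -0.087 in place of -0.019, 0 of the 10 were called higher, and with table totals only 1 was, U2AF65b. CLO was also not called without Col-0 replicate 2 (1 gene called) and without janus-2 replicate 1 (1 gene called). Both genes rose under every alternative, with log2 fold changes between 0.54 and 0.63 for U2AF65b and between 0.52 and 0.61 for CLO.

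**Figure D3:**
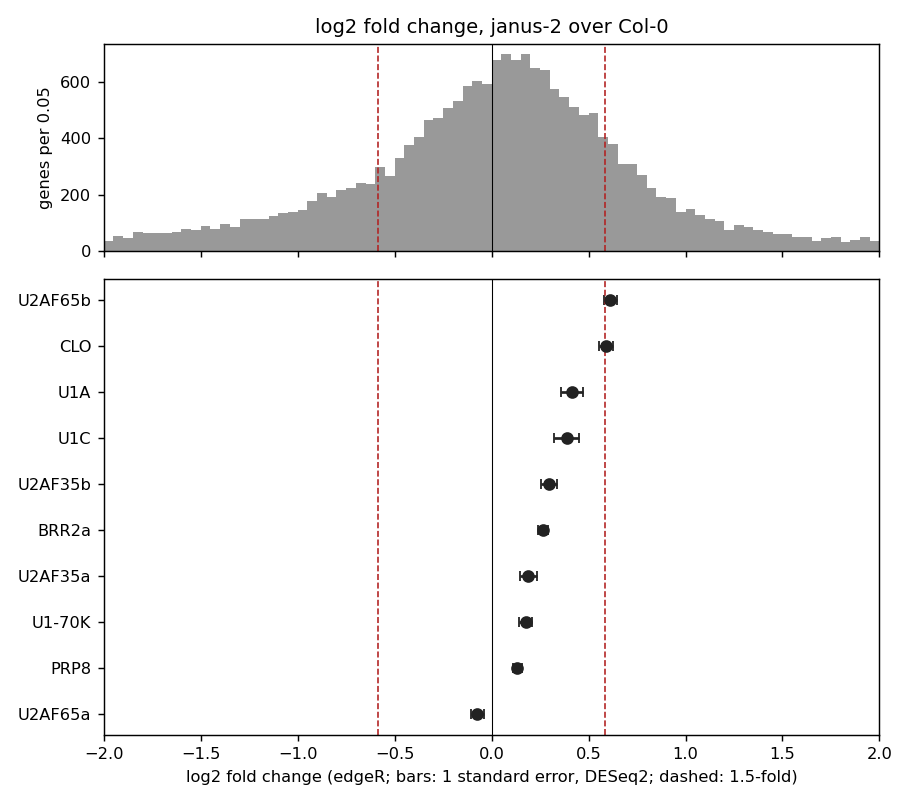
Log2 fold change of janus-2 over Col-0 (x axis, shown from -2 to 2), with the number of tested genes per 0.05 above and the 10 genes below, with bars of 1 standard error (DESeq2) and dashed lines at 1.5-fold. The 10 genes lie between -0.07 and 0.61, inside the broad middle of the distribution, and U2AF65b and CLO lie just to the right of the 1.5-fold line.

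Ordered by their log2 fold changes, the 10 genes ran from U2AF65b at 0.61 and CLO at 0.59 through U1A at 0.41 and U1C at 0.39, U2AF35b at 0.30, BRR2a at 0.26, U2AF35a at 0.19, U1-70K at 0.17 and PRP8 at 0.13 to U2AF65a at -0.07. Neighbours such as U2AF65b and CLO, U1A and U1C, or U2AF35a and U1-70K differed by less than 1 SE. The order did not follow the particles, because each of the U1, U2AF and U5 groups held genes above and below the median. Summed over the genes of a group, the CPM changed by 1.20-fold for U1, 1.17-fold for U2AF and 1.19-fold for U5, and the sum over all 10 genes moved from 1444 and 1453 CPM in Col-0 to 1714 and 1720 CPM in janus-2. These sums are weighted towards the genes with the most counts, PRP8 above all, and were not tested.

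The design set 1 further locus beside each U5 gene. These 3 loci carry no name in the annotation used and are given by number, and whether they share reads with the U5 genes was not tested. AT5G25230, set beside CLO, had 354 and 374 counts in Col-0, against 1834 and 1728 counts in janus-2, and its log2 fold change was 2.30 (SE 0.10, adjusted p = 7.78e-207 from edgeR). Its share of the counts of the pair was 5.05% and 4.72% in Col-0, against 14.1% and 14.6% in janus-2. AT2G42270, set beside BRR2a, rose with a log2 fold change of 0.87, and its share of the pair went from 16.7% and 18.1% to 24.4% and 24.1%. AT4G38780, set beside PRP8, rose with a log2 fold change of 0.89, and its share went from 4.07% and 3.98% to 6.65% and 6.58%. In all 3 pairs the share of the unnamed locus did not overlap between the genotypes and was the higher in janus-2. In CPM, the groups did not overlap in 90.8% of all tested genes, and the shares were not tested.

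Beyond the 10 genes, 56 loci were listed for other parts of the spliceosome (U1-associated, U2 and 3′ splice site, U5-associated, U4/U6 and tri-snRNP, Sm core, and the NTC, the Prp19-associated complex, with late helicases). Of these, 55 were tested, 44 rose, 7 fell and 4 did not pass, with a median log2 fold change of 0.36, where 40.6% of all tested genes rose and 42.5% fell (56.9% and 32.8% in the CPM range of the 10 genes). With the fold threshold 12 were called higher and 1 lower, beside 18.5% and 27.2% of all tested genes. The 12 include the 3 loci set beside the U5 genes. The assignment of 29 of the loci rests on general knowledge only, because the annotation gives them no name, and of the 27 named loci 24 rose, 2 fell and 1 did not pass, with 3 called higher. The median of the 10 genes was 0.28, with U2AF65b, CLO, U1A and U1C above the median of the listed loci, and the difference between the medians was not tested.

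The lists differed in their counts. In the U1-associated list 8 of 9 rose, among them PRP40A (log2 fold change 0.30) and PRP40B (0.48), homologues of a yeast protein that bridges the ends of the intron, and AT5G17440 was the 1 locus called higher (0.65), while AT1G60200 fell (-0.25). In the list for U2 and the 3′ splice site, U2B″ (AT2G30260), which binds U2 RNA together with U2A′, was called higher (0.69), as was AT1G10320 (0.79), AT1G06960 was called lower (-0.84), and AtSF1 (AT5G51300), the branch point binding protein that partners U2AF65, rose by 0.44 on the log2 scale. The U5-associated list had the highest median, 0.81, with 5 of 9 called higher. The 5 were STA1 (AT4G03430), a PRP6 homologue (0.87), AT2G33730 (0.81) and the 3 loci already set beside the U5 genes. The uncalled loci were AT5G61140 (0.45), AT2G43770 (0.28), YLS8 (0.11) and AT3G24730, which fell (-0.35). The high median thus counts those 3 loci again, and a median without them was not computed.

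Of the 7 tested loci of the U4/U6 and tri-snRNP list, 7 rose. RDM16 (AT1G28060) was highest at 0.79 and was called higher with AT5G20160 (0.63), and LIS was lowest at 0.13 (adjusted p = 0.0181 from edgeR). The Sm core list, whose proteins form the ring shared by U1, U2, U4 and U5, was the most divided, with 6 of 13 higher, 4 lower and 3 that did not pass, and a median of 0.05. AT3G07590 was called higher there (1.19), and SNRNP-G was lowest at -0.36. In the list of the NTC and late helicases 11 of 12 rose with a median of 0.45, AT1G10580 was called higher (0.87), and PRL1 did not pass (log2 fold change 0.03, adjusted p = 0.338 from edgeR). The loci whose centred log2 CPM over the 4 libraries lay nearest to the mean profile of the 10 genes were PRP40A (Euclidean distance 0.0225), AT2G43770 (0.0291) and emb1220 (AT1G60170, 0.0520). Among the 10 genes themselves these distances ran from 0.0344 for U2AF35b to 0.38 for U2AF65a. Because replicates were close, such distances reflect mainly the fold change. The log2 fold changes of PRP40A, AT2G43770 and emb1220 were 0.30, 0.28 and 0.30.

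**Figure D4:**
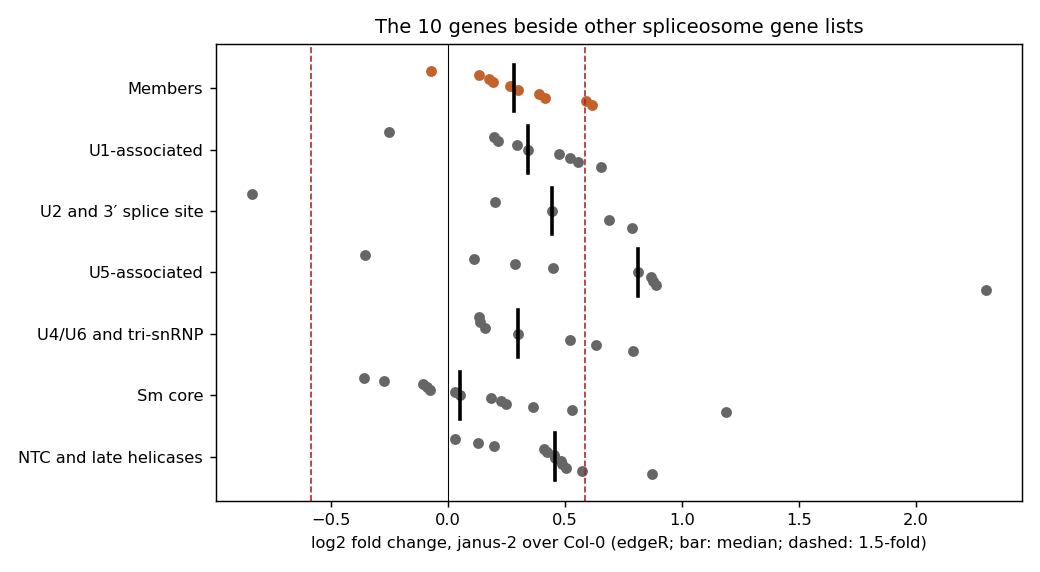
Log2 fold change of janus-2 over Col-0 (x axis) for each of the 10 genes (orange) and for each tested locus of the 6 other spliceosome lists (grey), with list medians as black bars and dashed lines at 1.5-fold. The median of the 10 genes is 0.28, the U5-associated list has the highest median (0.81) and the Sm core list the lowest (0.05).

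Markers of several cell types moved with the genotype, and in bulk tissue fewer cells of a type and less RNA per cell cannot be told apart. All 10 pollen markers were called lower, beside 27.2% of all tested genes. The markers ran from ANX1 (log2 fold change -1.59) to the sperm histone gene MGH3, which had 495 and 625 counts in Col-0 and 0 in both janus-2 libraries. Their summed level was 3841 to 3867 CPM in Col-0 and 49.5 to 51.3 CPM in janus-2. All 11 tapetum markers were called lower as well, from AMS (-2.64) to GRP17 (-6.89), with sums of 2577 to 2620 CPM in Col-0 and 107.1 to 107.3 CPM in janus-2. DUO1 and DYT1, which direct the sperm lineage and the early tapetum, had at most 1 count in a janus-2 library. Their counts were low in Col-0 too, 77 and 96 for DUO1 and 25 and 32 for DYT1.

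Markers of dividing cells also fell, 7 of 7, and 6 of 7 were called lower, beside 42.5% and 27.2% of all tested genes. The 7 ran from CDKB1;1 (-0.18) to CYCB1;2 (-1.08), with sums of 281.9 to 283.1 CPM in Col-0 and 164.5 to 164.9 CPM in janus-2. Of 6 floral regulators that mark the labelled tissue, all were detected. PI (-1.46) and AP3 (-0.86) were called lower, AP1 fell (-0.46), AG rose slightly (0.13), and SEP3 and LFY did not pass. The part of these marker changes in the values of the 10 genes was not tested.

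Some of the 10 genes overlap other genes in the annotation, and whether the counting used strand is not given in the sources used here. The RefSeq spans of U1A, U1C, U2AF35a, U2AF35b and BRR2a overlap at least 1 other gene, and those of U1-70K, U2AF65a, U2AF65b, PRP8 and CLO overlap none. For U2AF35a the partner, AT1G27640, had 0 counts in each library. For U2AF35b the partners AT5G42810 and AT5G42825 had 985 to 1284 and 573 to 897 counts, against 4494 to 6262 for U2AF35b itself. AT4G03130, beside U1C, had 41 to 124 counts, and AT1G20950, beside BRR2a, had 3295 to 5523. The shared spans were short for U1C (23 bases) and BRR2a (35). They were longer for U2AF35a (356) and for U2AF35b with AT5G42810 (177) and AT5G42825 (981). Reads from shared stretches may therefore be assigned to the wrong gene or left out as ambiguous. The 2 lncRNA partners, AT2G09945 of U1A and AT5G06395 of U2AF35b, share 1034 and 884 bases and were otherwise not analysed here. The counts are sums per gene, and transcript forms or retained introns of these genes were not analysed here.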

How the data were processed

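Total RNA from inflorescences was sequenced as mRNA libraries, 2 per genotype, and the submitters' processing notes name Bowtie, HTSeq and the TAIR10 build. For each library the authors deposited raw counts per gene in the layout of htseq-count, without normalization. Versions and strand setting are not given in the sources used here. The rows that name no gene, 3.27% to 3.45% of the aligned reads, were left out. The tests used R 4.3.3 and edgeR 4.0.16 (filterByExpr, TMM, glmQLFit, glmQLFTest), with DESeq2 1.42.0 for standard errors and as an alternative. CPM are given per library or as mean ± SD. The study tested genes with Ballgown, which was not used here. The fits were tested on simulated data. There DESeq2 did not reach the recovery first required for small fold changes, and that requirement was then kept for edgeR only, after this was seen. Few genes changed in the simulation, equally many up and down, so it could not test the scaling in data where most genes differ. Names came from the RefSeq annotation of TAIR10.1, used for names and for overlaps between genes only, and the division of listed loci into named and unnamed was made after the values were seen. Sequences were not used here. The genes and lists were chosen with earlier results of these data known. Besides the 10 genes, those named are JANUS, the loci set beside the U5 genes, the called, highest and lowest genes of each list (some further named loci were chosen after their values were seen) and the 3 nearest profiles, computed from log2 CPM with 0.01 added. Alternatives changed the scaling, the tool, the filter, the fold threshold, the replicate block and the libraries kept. Small RNA libraries were not used. Figures were drawn with matplotlib 3.10.9.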

Additional observations from a re-analysis of the deposited data

How the results depend on the processing

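For the 10 genes and JANUS, 108 of 110 values under the alternatives kept their direction and their side of an adjusted p of 0.05, and 0 reversed. The 2 others were those of U2AF65a given in the report, -0.054 without Col-0 replicate 1 and -0.035 without janus-2 replicate 2, so that the number of the 10 genes that fell was 0 to 1 over the libraries left out. The number called higher was 2, and it was 1 with table totals, 0 with upper-quartile scaling, 0 with a fold threshold of 2 and 9 with none, and 1 to 2 without single libraries. The number called lower was 1 with no fold threshold. Upper-quartile scaling lowered all values, with a median of 0.21 for the 10 genes and -0.087 for all tested genes, and PRP8 was then at 0.065. Over all genes, 2194 were called higher at 2-fold, and 9324 higher and 9778 lower with no fold threshold. Of the listed spliceosome loci, 2 were called higher and 0 lower at 2-fold, and 44 and 7 with no fold threshold.

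Same-numbered libraries deviated with a correlation of -0.013 across genes, so that no shared deviation was seen. Whether the replicate numbers pair the samples is not given in the labels, and this value cannot decide it. With the replicate block, 4224 genes were called higher and 6180 lower, and 2 of the 10 genes higher, and the block changed no call of the 10. With 2 libraries a group, no outlier test was possible. The p-values of all 10 genes rest on a spread estimated mainly across genes, which matters most for the small steps of PRP8 and U2AF65a.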
